A study of Mus musculus with 12 samples.

Results

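The genes described here encode glutathione transferases, glutathione peroxidases, aldehyde dehydrogenases and carbonyl reductases, measured by RNA-seq of whole mouse skin. Members were protein-coding genes whose symbols begin with Gst and a class letter (a, m, p, t, o, k or z), Mgst, Gpx, Aldh or Cbr followed by a digit. Of 53379 gene IDs in the count tables, 58 matched, and all 58 held at least 10 counts summed over the libraries. They fall into 11 families, with 21 aldehyde dehydrogenases (ALDH), 8 glutathione peroxidases (GPX), 4 carbonyl reductases (CBR) and 3 microsomal glutathione transferases (MGST). The cytosolic and mitochondrial glutathione transferases (GST) number 7 of class mu, 4 of alpha, 4 of theta, 3 of pi, 2 of omega, 1 of kappa and 1 of zeta. The lowest totals were 23 counts for Gpx6, 52 for Gstt4, 56 for Gstm3 and 57 for Aldh8a1, and no match had between 5 and 20 counts.

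The 12 skin samples formed 4 groups of 3, all from mice aged 3 months on a background labelled C57BL/6 & B6D2. Control mice were Prss56Cre,R26tdTom, which is a Cre driver with a fluorescent reporter. Nf1-KO mice carried Nf1flox/- in addition, a floxed and a null allele of the gene for neurofibromin, a negative regulator of RAS. Skin of each genotype was either uninjured or taken 14 days after injury. Prss56 drives Cre in boundary cap cells and their descendants, the lineage named in the series title. The null allele, in contrast, needs no Cre. The labels do not say that the 3 samples of a group are separate animals, so p-values measure the spread between these samples.

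Glutathione is a small thiol that glutathione transferases attach to reactive compounds and that glutathione peroxidases use to reduce hydrogen peroxide and lipid peroxides. Aldehyde dehydrogenases oxidise aldehydes from lipids, alcohols, amino acids and vitamin A to acids, and carbonyl reductases reduce ketones and quinones. Skin meets oxygen, ultraviolet light and foreign chemicals from outside, and its epidermis, hair follicles and sebaceous glands are known to hold much of this machinery. In ALDH, the 1A enzymes also make retinoic acid, a signal for epidermal and hair follicle cells.

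Library totals ran from 8817013 to 16809687 counts, of which the members took up 0.238% to 0.301% before injury and 0.348% to 0.445% after it. Several features of the libraries moved with the skin state. Xist was at 0.709 to 2.95 raw CPM (counts scaled to the library total) in uninjured and 436 to 627 in injured libraries, and the Y-linked Ddx3y at 68.2 to 93.3 and 0 to 0.0595, in both genotypes. Injury and sex therefore cannot be told apart in any comparison of skin states here. No member lies on a sex chromosome. As a measure of background, 1728 olfactory and vomeronasal receptor genes averaged 0.0953 to 0.337 raw CPM per kb of exon in uninjured and 0.00229 to 0.0533 in injured libraries. The ribosomal RNA-like share of counts was 1.19% to 3.01% in uninjured and 2.32% to 5.37% in injured libraries.

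The cell type markers of skin were present and differed between the states. In TMM-normalised CPM, 7 basal keratinocyte markers summed to 15430 to 21680 in control uninjured, 19270 to 25370 in Nf1-KO uninjured, 12770 to 14210 in control injured and 7753 to 10890 in Nf1-KO injured libraries. The 8 markers of hair shaft and inner root sheath, all 8 called higher in both genotypes, summed to 17.3 to 23.0, 20.1 to 74.3, 10800 to 18670 and 8893 to 29130 in the same order. For 8 fibroblast markers, also all 8 higher, the sums were 1607 to 3433, 1015 to 2540, 6015 to 16830 and 9789 to 18400. Adipocyte markers (7 and 6 of 7 higher in control and Nf1-KO skin), macrophage markers (6 and 7 of 7), skeletal muscle markers (6 and 7 of 7) and melanocyte markers (6 and 6 of 6) rose as well, and of 9 sebaceous markers 5 rose and 1 fell in control and 2 rose and 1 fell in Nf1-KO skin. Blood endothelium markers rose in 4 and 5 of 5 cases, while differentiating keratinocyte markers fell in 4 and 6 of 8. Of 6 Schwann cell markers, 3 fell in control skin, and 2 fell and 1 rose in Nf1-KO skin. No marker of these lists was at 0 in every library. Every difference between skin states below therefore came with a different mix of cell markers, whose part in it was not tested, and in whole tissue fewer cells of a type and less RNA per cell cannot be told apart. A list of 6 liver genes, a tissue that expresses many members, summed to 3.91 to 45.6 CPM in 11 libraries and 103.5 in control injured 2. Most of that sum was Cyp2e1, at 3.22 to 100.1 CPM, while the albumin gene Alb was at 0 to 1.90 raw CPM.

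At 14 days after injury, 29 of 56 tested members (51.8%) were higher in control and 22 (39.3%) in Nf1-KO skin. Of all tested genes, 22.8% and 19.1% were higher. Gpx1, Gpx2, Gpx3, Gpx4, Gpx7 and Gpx8, the microsomal transferases Mgst1 and Mgst3, the pi class transferases Gstp1 and Gstp2 and the retinal dehydrogenase Aldh1a3 rose in control and in Nf1-KO skin. Gsta2, Gstt3, Aldh3a1, Aldh6a1 and Aldh1a7 fell in both. A gene was called changed at adjusted p under 0.05 in edgeR's quasi-likelihood test with Benjamini-Hochberg adjustment over the 23635 genes that passed the expression filter. That filter left 56 members, all but Gpx6 and Gstm3.

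In control skin, 29 of the 56 tested members (51.8%) rose and 10 (17.9%) fell, where 22.8% of all tested genes rose and 32.5% fell. The median log2 fold change was 0.80 over the members and -0.21 over all tested genes. The members' median was also 0.80 with Aldh8a1, at 0 counts in control injured skin, placed at its bound. All 3 injured libraries lay on one side of all 3 uninjured libraries for 41 members (73.2%), against 62.4% of all tested genes. Without control uninjured 1 and 2, which had the highest receptor gene background, 19 members were called, 12 of them higher, and 6164 genes in place of 13072. That setting leaves 1 control uninjured library, assumed to vary like the other groups, and so has fewer samples to make a call with. Calls lost in that setting included the rises of Gpx1 (log2 1.08), Gpx2 (3.27), Mgst1 (1.71), Aldh1l1 (1.52), Gstm1 (0.89), Gstz1 (0.86) and Cbr3 (0.79). The falls of Aldh1a7 (log2 -1.27), Aldh3a1 (-0.98), Aldh4a1 (-0.70) and Gstt4 (-1.74) lost their calls there as well. The number of members that fell was 6 without control uninjured 3 and 5 without control injured 3.

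In Nf1-KO skin, 22 of 56 members (39.3%) rose and 9 (16.1%) fell, against 19.1% and 18.4% of all tested genes. The median was 0.54 over the members and -0.09 over all tested genes, and the groups were apart for 34 members (60.7%) against 51.6% of all tested genes. Without Nf1-KO uninjured 2, 20 members were called, 12 of them higher. In DESeq2 the share of calls that were higher went from 41.3% to 29.8% over all genes and stayed at 74.4% over members in control skin, and in Nf1-KO skin it went from 50.9% to 39.7% over all genes and from 71% to 63.3% over members. In control skin the shares over all genes and members were 33.4% and 80% with no filter. They were 48.6% and 76.3% with 2 CPM in 3 libraries, and 46.8% and 76.3% with the compared groups alone. In Nf1-KO skin these settings gave 45.4% and 69%, 51.6% and 69%, and 53% and 66.7%. The contrast with all genes thus moved with the filter and the method.

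Across the 2 injury comparisons, 21 members rose in both, 7 fell in both, and 15 were called in neither. The share of all tested genes called alike in both comparisons was not counted, so these numbers have no background beside them. Among the 7 that fell, Gpx5 and Gstt4 had few counts, with 2 and 2 in control injured and 6 and 1 in Nf1-KO injured libraries. In control skin only, 7 rose by the test (Aldh3b3, Cbr1, Gstm6, Gstm7, Gstp3, Gstz1 and Mgst2), and 3 fell in control skin only (Aldh3a2, Aldh4a1 and Aldh8a1). Aldh3b1 rose and Gstm5 fell in Nf1-KO skin only, and Cbr3 was called in opposite directions. None of these differences between the injury responses was itself called, as given with the genotype comparisons below.

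Summed over all 58 members, the level was 2153, 2046 and 2471 CPM in control uninjured libraries 1 to 3, 2634, 2226 and 3215 in Nf1-KO uninjured, 3926, 4737 and 4489 in control injured and 4166, 3907 and 4538 in Nf1-KO injured libraries. All sums here and levels below are in TMM-normalised CPM, and 3 values in a row always belong to libraries 1 to 3 of a group. The injured libraries were all above the uninjured ones, with means of 2223 ± 221, 2692 ± 497, 4384 ± 416 and 4204 ± 317 (SD, n = 3). Peroxidases made up most of the gain: their sum was 659 ± 66.4 and 848 ± 218 in uninjured and 1856 ± 55.7 and 1772 ± 452 in injured control and Nf1-KO skin. The MGST sum was 223 ± 51.9 and 299.6 ± 113 uninjured and 779 ± 149.7 and 752 ± 112 injured. The ALDH sum hardly moved relative to its spread, at 695 ± 87.8 and 721 ± 39.4 uninjured and 686 ± 120.1 and 669 ± 141 injured, since its members went both ways. The theta class was the one class with a lower sum after injury in both genotypes without overlap, at 64.7 ± 9.47 and 71.8 ± 8.68 uninjured and 40.6 ± 7.32 and 48.1 ± 7.78 injured.

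**Figure D1:**
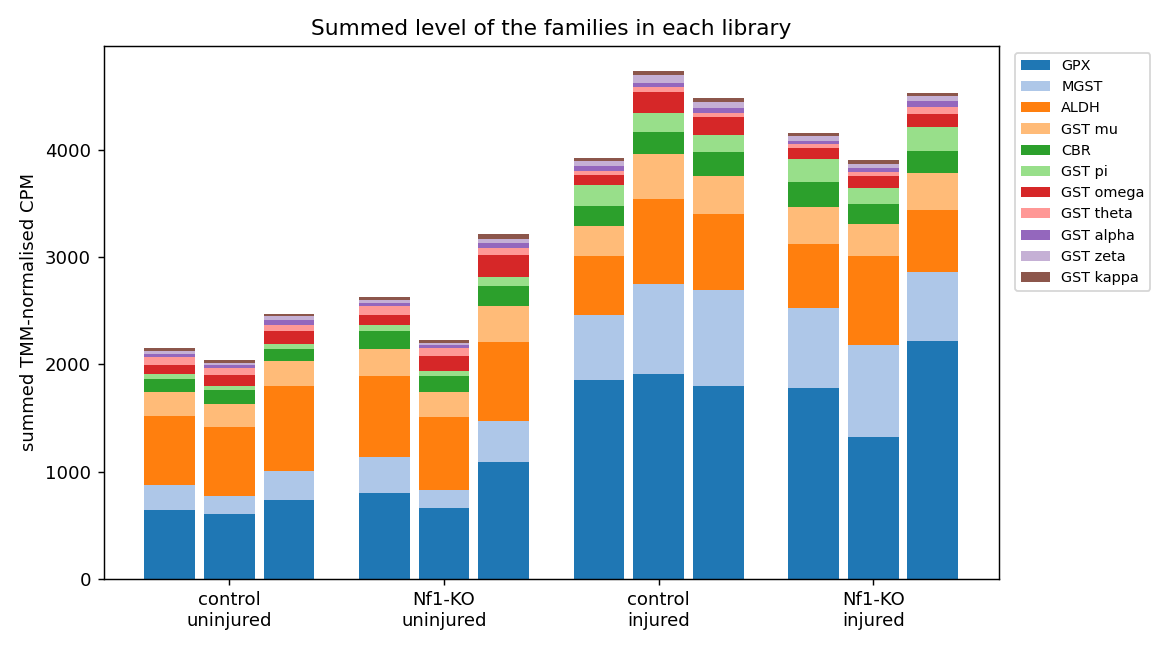
Stacked bars show the summed TMM-normalised CPM of each of the 11 families in the 12 libraries, grouped by genotype and skin state. Uninjured libraries reach 2046 to 3215 CPM and injured ones 3907 to 4737, with the GPX and MGST blocks taking most of the added height and the ALDH block staying about the same.

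Per kb of exon, which allows levels of different genes to be compared, Gpx1 had the highest mean over all libraries at 598 CPM per kb. Mgst3 followed at 255, Gpx3 at 117, Mgst1 at 106, Gstm5 at 81.3, Gstm1 at 78.3, Gpx4 at 74.6 and Gstp1 at 68.4 CPM per kb. The highest reductase was Cbr2 at 62.9 and the highest dehydrogenases were Aldh3b2 at 59.97 and Aldh3a1 at 44.6 CPM per kb. At the low end stood Aldh8a1 at 0.0866, Gpx6 at 0.117, Gstm3 at 0.276 and Gstt4 at 0.36 CPM per kb.

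Many genes of these families are known to carry an antioxidant response element in their promoters, the site bound by NRF2, so the promoters were searched for its core letters TGACNNNGC on both strands. This was the one motif searched, in 300 bases that run from 250 before to 50 after the annotated start in the RefSeq promoter table for GRCm38.p6. By symbol, 50 of the 58 members matched that table, all but Aldh1a3, Aldh1l2, Aldh2, Aldh3a1, Aldh3b2, Aldh7a1, Gsta4 and Gstt2. Counting a gene with several annotated starts once if any window held them, the core letters were in the promoters of 6 members (12%) and of 3781 of 27025 genes in the table (14%). Of 19 members that rose in both genotypes, 1 (5.26%) held the letters, and of 6 that fell in both, 0. The 6 matches are shown because they are all the windows with these letters, each with 10 bases on either side, the core in capitals:
Mgst1: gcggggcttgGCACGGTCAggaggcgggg
Gstm5: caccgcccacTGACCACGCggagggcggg
Gstm7: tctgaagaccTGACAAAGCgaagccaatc
Gsta3: aactcaggcaTGACATTGCatttttcttc
Aldh1a2: gccgcggactTGACCGTGCgggcgccgcg
Aldh9a1: ttaattatgcTGACTAGGCccaagctact
The windows lie at chr6:138140461-138140489 (+) for Mgst1, chr3:107895802-107895830 (+) for Gstm5, chr3:107931725-107931753 (-) for Gstm7, chr1:21240454-21240482 (+) for Gsta3, chr9:71215667-71215695 (+) for Aldh1a2 and chr1:167349894-167349922 (+) for Aldh9a1. Each is written 5′ to 3′ on the strand of its gene, and in Mgst1 the core reads on the opposite strand. The core began 56 bases before the start site in Mgst1, 42 in Gstm5, 129 in Gstm7, 121 in Gsta3, 112 in Aldh1a2 and 87 in Aldh9a1. Because Mgst1 was the one member with the letters that rose in both genotypes, the 250 bases before that RefSeq start (chr6:138140277-138140526, +) are given in full, with the core in capitals:
Mgst1: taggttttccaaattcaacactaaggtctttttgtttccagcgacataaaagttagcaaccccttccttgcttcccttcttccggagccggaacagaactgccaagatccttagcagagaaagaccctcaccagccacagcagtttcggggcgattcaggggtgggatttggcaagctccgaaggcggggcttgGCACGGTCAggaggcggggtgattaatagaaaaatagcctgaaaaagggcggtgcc
Mgst1 has another RefSeq start whose window, from 138141337 to 138141636, does not hold the core. The GENCODE gene of Mgst1 begins at 138140316, within the printed stretch, so its core lies inside that gene. Gstm7 also has another window without the core, and its core likewise lies inside the GENCODE gene. A match is a description of letters only, and its absence says only that these letters are not in this window.

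Among glutathione peroxidases, 6 of 7 tested members rose after injury in both genotypes and Gpx5 fell. Their median log2 fold change was 1.60 in control and 1.46 in Nf1-KO skin. Gpx1 (ENSMUSG00000063856, chromosome 9, 108338903 to 108340343, mm10), the abundant cytosolic enzyme that reduces hydrogen peroxide, had 439.8, 474 and 571 CPM in control uninjured, 515, 500.5 and 881 in Nf1-KO uninjured, 1384, 1057 and 1184 in control injured and 1080, 759 and 1503 in Nf1-KO injured libraries. The control groups were apart, whereas Nf1-KO uninjured 3 was above Nf1-KO injured 2. Its log2 fold change was 1.29 ± 0.28 (SE, edgeR adjusted p = 0.0015) in control and 0.82 ± 0.28 (adjusted p = 0.0313) in Nf1-KO skin. The Nf1-KO call was lost without Nf1-KO uninjured 1 or 2 or Nf1-KO injured 1 or 3, with log2 values of 0.57 to 0.88 and adjusted p of 0.0503 to 0.128. It was also lost when the compared groups were fitted alone (log2 0.76, adjusted p = 0.101) or with a covariate for the ribosomal RNA-like share (log2 0.39, adjusted p = 0.249). Gpx1 alone made up 22.2% of the summed member level in control uninjured and 28% in control injured skin.

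Gpx2 (chromosome 12, 76792333 to 76795554), an epithelial peroxidase best known from the gut, and Gpx7 (chromosome 4, 108400390 to 108406961), a peroxidase of the endoplasmic reticulum, rose most within the family. Gpx2 stood at 1.88, 0.921 and 4.67 CPM in control uninjured, 2.51, 1.61 and 14.6 in Nf1-KO uninjured, 62.7, 33.9 and 38.7 in control injured and 38.5, 40.8 and 31.1 in Nf1-KO injured libraries. No injured library overlapped an uninjured one, and Nf1-KO uninjured 3 stood above the other uninjured libraries. Of the uninjured libraries it also had the highest sums of hair (74.3 CPM), basal keratinocyte (25370), differentiating keratinocyte (41510) and melanocyte markers (117.4). It was not the highest for the other cell type lists, and the part of the cell mix in its Gpx2 level was not tested. The change was 17.6-fold in control (log2 4.14 ± 0.84, edgeR adjusted p = 0.00287) and 5.96-fold in Nf1-KO skin (log2 2.58 ± 0.78, adjusted p = 0.0284). In Nf1-KO skin that call was lost without uninjured 1 or 2 or injured 1 or 2, with log2 values of 2.11 to 2.60 and adjusted p of 0.0644 to 0.0855, and with no filter or the ribosomal RNA-like covariate (adjusted p = 0.0617 and 0.077). Gpx7 had 3.86, 2.46 and 3.91 CPM in control uninjured, 3.58, 3.29 and 8.67 in Nf1-KO uninjured, 21.6, 51.3 and 37.1 in control injured and 42.4, 30.5 and 75.0 in Nf1-KO injured libraries. These groups were apart in both genotypes, by 10.8-fold in control (log2 3.43 ± 0.47, adjusted p = 0.000126) and 9.53-fold in Nf1-KO skin (log2 3.25 ± 0.46, adjusted p = 0.000165).

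Gpx3 (chromosome 11, 54902453 to 54910377), the secreted peroxidase of plasma and tissue fluid, had 114, 60.2 and 68.8 CPM in control uninjured, 164, 68.7 and 44.0 in Nf1-KO uninjured, 207, 496 and 325 in control injured and 377, 256 and 359 in Nf1-KO injured libraries. The injured groups were above the uninjured ones in both genotypes, although the uninjured Nf1-KO libraries differed from each other by more than the control ones. In edgeR the log2 fold change was 2.08 ± 0.47 in control (adjusted p = 0.00295) and 1.84 ± 0.46 in Nf1-KO skin (adjusted p = 0.00933), and without Nf1-KO uninjured 2 the latter was 1.64 (adjusted p = 0.0599). Gpx4, which reduces peroxides within membrane lipids and protects cells from ferroptosis, had means of 59.0 ± 7.03 and 90.1 ± 23.1 CPM uninjured and 178 ± 37.5 and 187 ± 2.59 CPM injured (SD, n = 3). It rose by 1.60 and 1.05 on the log2 scale (edgeR adjusted p = 4.92e-05 and 0.0014), with 34.7% of its 50-base stretches shared with the pseudogene Gpx4-ps2, so that some of its reads may be uncertain. Gpx8, a membrane protein of the endoplasmic reticulum, went from 16.0 ± 3.7 to 44.6 ± 13.5 CPM in control and from 19.6 ± 3.93 to 54.0 ± 13.5 CPM in Nf1-KO skin (log2 1.48 and 1.46, edgeR adjusted p = 0.000351 and 0.000468).

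**Figure D2:**
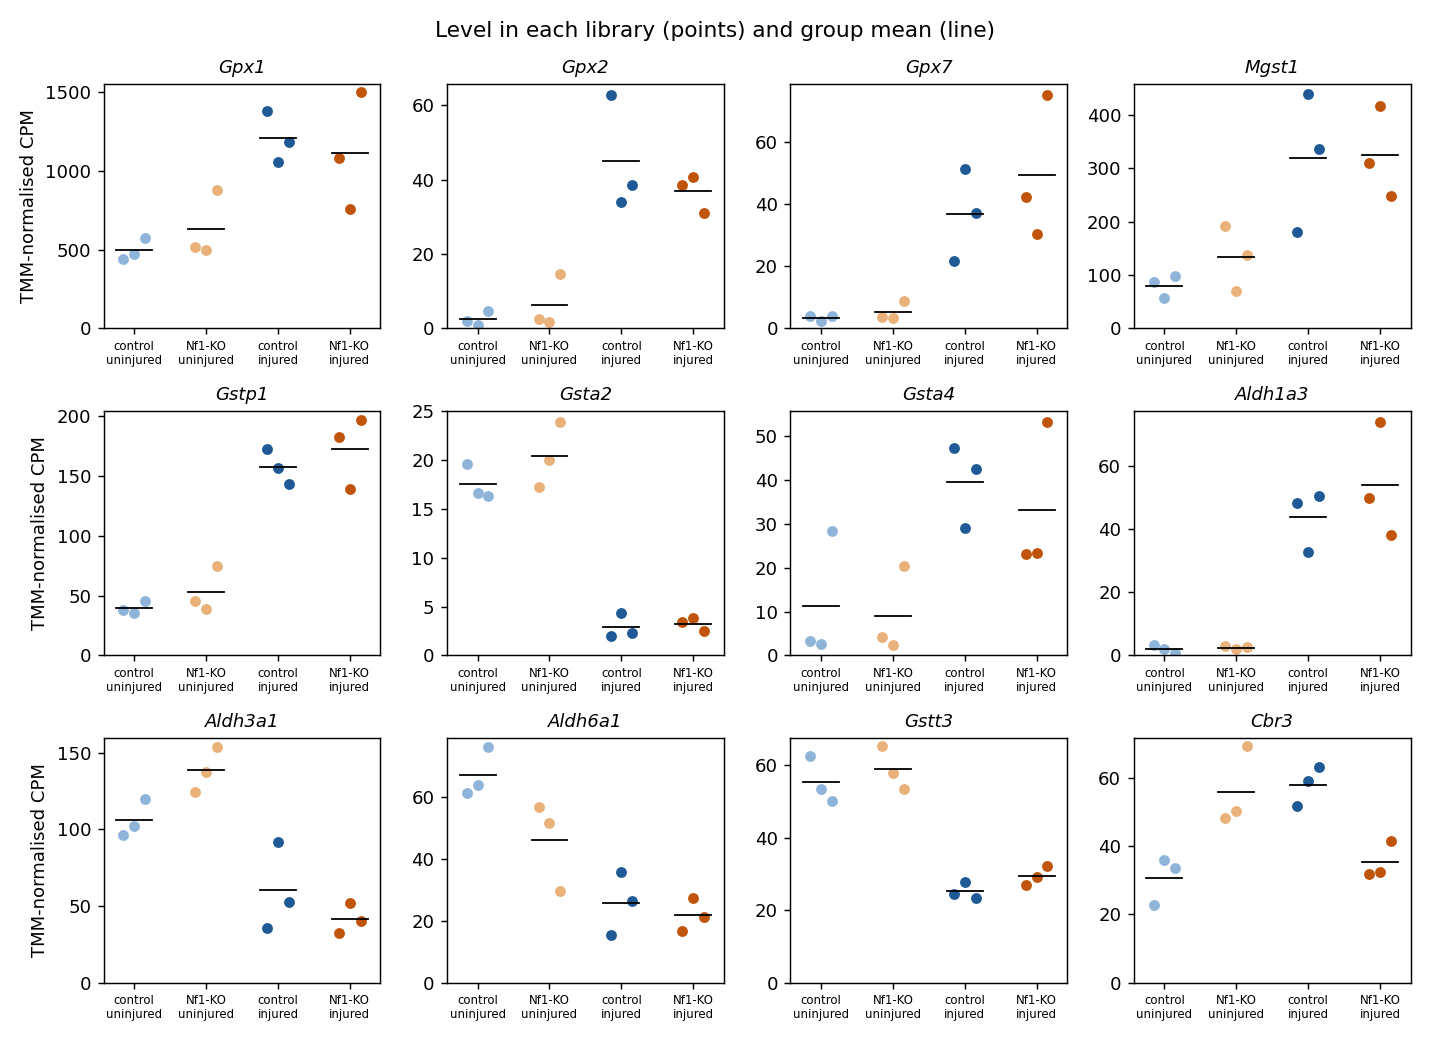
Points show TMM-normalised CPM (linear axes from 0) of 12 members in each of the 3 libraries of a group, and lines show the group means. Gpx2, Gpx7, Gstp1 and Aldh1a3 are higher and Gsta2, Gstt3, Aldh6a1 and Aldh3a1 lower in injured skin of both genotypes, Gsta4 is split among uninjured libraries, and Cbr3 is high in Nf1-KO uninjured and control injured skin.

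Microsomal glutathione transferases sit in membranes and handle lipid peroxides and leukotrienes. Mgst1 (chromosome 6, 138140316 to 138156755), the member whose promoter is printed above, had 86.6, 56.2 and 97.5 CPM in control uninjured, 192, 70.5 and 137 in Nf1-KO uninjured, 181, 439.6 and 335 in control injured and 311, 418 and 248 in Nf1-KO injured libraries. Injured and uninjured libraries were apart within each genotype, while Nf1-KO uninjured 1 was above control injured 1. It rose 3.98-fold in control (log2 1.99 ± 0.38, edgeR adjusted p = 0.000828) and 2.45-fold in Nf1-KO skin (log2 1.29 ± 0.37, adjusted p = 0.0156). The Nf1-KO call was lost without Nf1-KO uninjured 2 (log2 0.97, adjusted p = 0.0635) and without Nf1-KO injured 2 (log2 1.07, adjusted p = 0.0733). Mgst3 (chromosome 1, 167371966 to 167393841) stood at 135, 102 and 158 CPM in control uninjured, 142, 92.0 and 221 in Nf1-KO uninjured, 399, 369 and 529 in control injured and 422, 430.4 and 362 in Nf1-KO injured libraries. Every injured library was above every uninjured one, with log2 fold changes of 1.72 ± 0.28 (edgeR adjusted p = 0.000206) and 1.42 ± 0.28 (adjusted p = 0.00109). Mgst2, which can make leukotriene C, had means of 11.4 ± 3.17 and 28.2 ± 2.49 CPM in control skin (log2 1.31, edgeR adjusted p = 0.00946) and of 14.9 ± 10.1 and 21.7 ± 7.34 in Nf1-KO skin (log2 0.55, adjusted p = 0.257). Without Nf1-KO uninjured 3 its Nf1-KO value passed (log2 1.29, adjusted p = 0.00523). The ribosomal RNA-like covariate ended the Mgst2 call in control skin (log2 0.74, edgeR adjusted p = 0.187).

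Alpha class transferases, which act on products of lipid peroxidation, held the member with the largest fall apart from genes with few counts. Gsta2 (ENSMUSG00000057933, chromosome 9, 78331018 to 78355788) had 19.6, 16.6 and 16.3 CPM in control uninjured, 17.2, 20 and 23.9 in Nf1-KO uninjured, 1.96, 4.31 and 2.34 in control injured and 3.4, 3.88 and 2.5 in Nf1-KO injured libraries. Uninjured libraries were several-fold above all injured ones, by 6.03-fold in control (log2 -2.59 ± 0.30, edgeR adjusted p = 1.34e-05) and 6.22-fold in Nf1-KO skin (log2 -2.64 ± 0.30, adjusted p = 8.86e-06). Of its 50-base stretches, 49.8% occur in other genes, 36% in Gsta1, so the split of reads between them is uncertain. Gsta1, with 90.5% of its stretches shared, had means of 0.85 ± 0.297, 1.35 ± 0.4, 0.608 ± 0.189 and 0.461 ± 0.0935 CPM in uninjured control and Nf1-KO and then injured control and Nf1-KO skin, and was not called. Its Nf1-KO groups were apart. DESeq2 (log2 -1.64, adjusted p = 0.035) and edgeR with median-of-ratios scaling (log2 -1.62, adjusted p = 0.0394) called it lower in Nf1-KO skin.

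The highest alpha member per kb was Gsta4 (chromosome 9, 78182774 to 78209349), which conjugates hydroxynonenal, and its uninjured libraries were split. It had 3.2, 2.53 and 28.3 CPM in control uninjured, 4.12, 2.3 and 20.4 in Nf1-KO uninjured, 47.4, 29.2 and 42.5 in control injured and 23.1, 23.4 and 53.3 in Nf1-KO injured libraries. Library 3 of both uninjured groups stood about as high as the lower injured libraries, and the groups were apart within each genotype. The log2 values of 1.78 ± 1.04 and 1.90 ± 1.06 did not pass the test (edgeR adjusted p = 0.178 and 0.187). Without control uninjured 3 the control value was 3.90 (adjusted p = 0.00725), and without Nf1-KO uninjured 3 the Nf1-KO value was 3.40 (adjusted p = 0.0492). Gsta3 was uneven in injured control skin, at 0.533, 11.1 and 0.735 CPM, against 5.46, 3.99 and 1.96 in control uninjured, 4.21, 4.14 and 3.25 in Nf1-KO uninjured and 0.385, 1.13 and 1.55 in Nf1-KO injured libraries, and was not called. Without control injured 2 it passed in control (log2 -2.48, adjusted p = 0.00518) and in Nf1-KO skin (log2 -1.90, adjusted p = 0.0101), where DESeq2 called it as well (log2 -2.06, adjusted p = 0.041). Control injured 2 also had the highest Cyp2e1 level (100.1 CPM), whose part in the value was not tested.

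Mu class transferases, which conjugate many foreign compounds and lie in 1 cluster on chromosome 3, rose in 5 of 6 tested cases in control and 3 in Nf1-KO skin. Gstm1 (chromosome 3, 108012255 to 108017973) had 75.0, 65.8 and 79.5 CPM in control uninjured, 90.04, 69.96 and 124 in Nf1-KO uninjured, 120.4, 176 and 145 in control injured and 159, 122 and 159 in Nf1-KO injured libraries. The groups were apart in control skin, and Nf1-KO uninjured 3 lay just above Nf1-KO injured 2. It rose by 1.002 ± 0.22 in control (edgeR adjusted p = 0.00159) and by 0.63 ± 0.22 in Nf1-KO skin on the log2 scale (adjusted p = 0.0345), and the latter call was lost without Nf1-KO uninjured 1 or 2 or Nf1-KO injured 1 or 3 (log2 0.44 to 0.61, adjusted p 0.0567 to 0.177). Median-of-ratios scaling, DESeq2, a fit of the compared groups alone and the ribosomal RNA-like covariate ended it as well (adjusted p 0.054 to 0.108). Gstm2 and Gstm4 also rose in both genotypes, by 1.24 and 0.93 on the log2 scale in control and by 0.93 and 0.73 in Nf1-KO skin. For Gstm4 the Nf1-KO call was lost without Nf1-KO uninjured 1 or 2, Nf1-KO injured 1 or 2 or control uninjured 2 (log2 0.62 to 0.77, adjusted p 0.0551 to 0.16), and under median-of-ratios scaling, no filter, the stricter filter, the replicate block, the compared groups alone and DESeq2 (adjusted p 0.0505 to 0.0725). Gstm6 (log2 1.34, adjusted p = 0.0245) and Gstm7 (log2 1.66, adjusted p = 0.00673), both at 1.00 to 9.42 CPM, rose in control skin by the edgeR test, with Nf1-KO values of 0.61 (adjusted p = 0.311) and 1.03 (adjusted p = 0.091). Without Nf1-KO uninjured 3 both Nf1-KO values passed (log2 1.44, adjusted p = 0.0267, and 1.60, adjusted p = 0.0247), and the Gstm6 call in control skin was lost without control uninjured 2 or control injured 1 or 3 (log2 1.23 to 1.30, adjusted p 0.051 to 0.0776). That Gstm6 call was also lost with the ribosomal RNA-like covariate (log2 0.92, edgeR adjusted p = 0.217). Gstm3 was at 0 to 1.06 CPM in every library and was not tested.

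Gstm5 (chromosome 3, 107895821 to 107898686), the highest mu member per kb, did not follow its neighbours. It had 99.3, 104 and 107 CPM in control uninjured, 117, 123 and 141 in Nf1-KO uninjured, 72.9, 125 and 107 in control injured and 87.2, 95.0 and 69.3 in Nf1-KO injured libraries. Control groups overlapped (log2 -0.02 ± 0.20, edgeR adjusted p = 0.928), while in Nf1-KO skin all injured libraries were lower (log2 -0.60 ± 0.20, adjusted p = 0.0311). The Nf1-KO call was lost without Nf1-KO uninjured 2 or 3, Nf1-KO injured 1 or 3, or control injured 3, with log2 values of -0.46 to -0.63 and adjusted p of 0.0635 to 0.104. It was also lost with no filter (log2 -0.53, adjusted p = 0.069) and with the ribosomal RNA-like covariate (log2 -0.34, adjusted p = 0.193). The difference between the injury responses was -0.57 ± 0.29 (edgeR adjusted p = 0.486) and was not called.

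The pi class, an abundant transferase of epithelia, rose in every tested member in control skin and in 2 of 3 in Nf1-KO skin. Gstp1 (ENSMUSG00000060803, chromosome 19, 4035407 to 4037985) had 38.0, 35.9 and 45.4 CPM in control uninjured, 45.7, 39.1 and 75.0 in Nf1-KO uninjured, 173, 157 and 144 in control injured and 183, 139 and 197 in Nf1-KO injured libraries. Every injured library was above every uninjured one, and the change was 3.97-fold in control (log2 1.99 ± 0.24, edgeR adjusted p = 1.55e-05) and 3.25-fold in Nf1-KO skin (log2 1.70 ± 0.23, adjusted p = 5.2e-05). Gstp2 (chromosome 19, 4040285 to 4046023) was lower in level, at 3.48, 2.61 and 2.08 CPM in control uninjured, 3.49, 2.15 and 2.62 in Nf1-KO uninjured, 11.9, 17.4 and 9.02 in control injured and 19.9, 8.89 and 18.2 in Nf1-KO injured libraries. It was likewise apart in both genotypes (log2 2.24 ± 0.36, edgeR adjusted p = 0.000199, and 2.51 ± 0.37, adjusted p = 8.77e-05). Because 54.3% of the 50-base stretches of Gstp2 and 33.7% of those of Gstp1 are shared, mostly with each other, their separate values are uncertain. Gstp3 stayed at 0.770 to 7.69 CPM, with log2 values of 1.48 in control (edgeR adjusted p = 0.0143) and 0.99 in Nf1-KO skin (adjusted p = 0.0999). Its control call was lost without control uninjured 2 (log2 1.11, adjusted p = 0.0665) or control injured 1 (1.25, adjusted p = 0.0502). The ribosomal RNA-like covariate ended that call as well (log2 0.71, edgeR adjusted p = 0.287).

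Theta class transferases, an ancient class with activity toward halogenated compounds, moved in opposite directions although they are neighbours on chromosome 10. Gstt3 (chromosome 10, 75774115 to 75781414) had 62.7, 53.5 and 50.2 CPM in control uninjured, 65.5, 57.9 and 53.5 in Nf1-KO uninjured, 24.4, 27.8 and 23.4 in control injured and 27.1, 29.2 and 32.4 in Nf1-KO injured libraries. It fell with no overlap, by 2.2-fold in control (log2 -1.14 ± 0.17, edgeR adjusted p = 0.000114) and 2-fold in Nf1-KO skin (log2 -0.998 ± 0.17, adjusted p = 0.000344). Gstt1 (chromosome 10, 75783813 to 75798584), 2398 bases away, had 6.02, 3.91 and 1.96 CPM in control uninjured, 5.11, 5.21 and 4.25 in Nf1-KO uninjured, 4.71, 12.5 and 11.7 in control injured and 10.2, 7.62 and 12.8 in Nf1-KO injured libraries. Control injured 1 was below control uninjured 1, and the Nf1-KO groups were apart. Both log2 fold changes passed the test, 1.30 ± 0.41 (edgeR adjusted p = 0.013) and 1.07 ± 0.41 (adjusted p = 0.0475). The Nf1-KO call was lost without any 1 of the Nf1-KO uninjured libraries, Nf1-KO injured 1 or 3, or control uninjured 2 (log2 0.90 to 1.11, adjusted p 0.0584 to 0.108). Median-of-ratios scaling, DESeq2, the stricter filter, the replicate block and the ribosomal RNA-like covariate ended it as well (adjusted p 0.0631 to 0.0846). Gstt2 had means of 4.71 ± 1.08, 7.17 ± 2.71, 5.67 ± 1.83 and 8.31 ± 3.17 CPM in uninjured control, uninjured Nf1-KO, injured control and injured Nf1-KO skin and was not called.

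In the omega and kappa classes no member was called, and Gstz1, the zeta member, rose in control skin. Gsto1 (chromosome 19, 47854970 to 47864790), a thiol transferase that also reduces dehydroascorbate, had 80.7, 104 and 118 CPM in control uninjured, 93.9, 144 and 199.8 in Nf1-KO uninjured, 93.8, 193 and 166 in control injured and 98.3, 111 and 124 in Nf1-KO injured libraries. All groups overlapped, with log2 values of 0.58 ± 0.28 (edgeR adjusted p = 0.0907) and -0.40 ± 0.28 (adjusted p = 0.271). The control value passed without control uninjured 3 (log2 0.81, adjusted p = 0.0369), control injured 1 (0.85, adjusted p = 0.0172) or Nf1-KO uninjured 1 (0.62, adjusted p = 0.0402), and with no filter (0.77, adjusted p = 0.00247). Gsto2 had 2.44, 2.3 and 1.45 CPM in control uninjured, 1.61, 1.92 and 3.07 in Nf1-KO uninjured, 1.96, 0.95 and 1.14 in control injured and 2.44, 1.34 and 3.7 in Nf1-KO injured libraries, with overlap in both genotypes and no call except in control skin with the ribosomal RNA-like covariate (log2 -1.64, edgeR adjusted p = 0.0242).

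Gstk1 (chromosome 6, 42245935 to 42250447), of mitochondria and peroxisomes, had 29.3, 27.9 and 22.8 CPM in control uninjured, 27.9, 24.3 and 43.6 in Nf1-KO uninjured, 30.4, 35.3 and 42.6 in control injured and 33.7, 35.9 and 29.8 in Nf1-KO injured libraries. The control groups did not overlap, yet the log2 value of 0.44 ± 0.22 did not pass (edgeR adjusted p = 0.105) except without Nf1-KO uninjured 3 (log2 0.46, adjusted p = 0.0456) or with no filter (log2 0.63, adjusted p = 0.0235). Gstz1 (chromosome 12, 87147165 to 87164723), an isomerase in the breakdown of tyrosine, had 24.2, 25.9 and 29.9 CPM in control uninjured, 36.3, 22.2 and 36.0 in Nf1-KO uninjured, 40.9, 69.5 and 52.0 in control injured and 41.7, 41.1 and 51.6 in Nf1-KO injured libraries. The groups were apart in both genotypes, and the control value passed (log2 1.02 ± 0.23, edgeR adjusted p = 0.00166) while the Nf1-KO value did not (log2 0.51 ± 0.23, adjusted p = 0.0857).

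**Figure D3:**
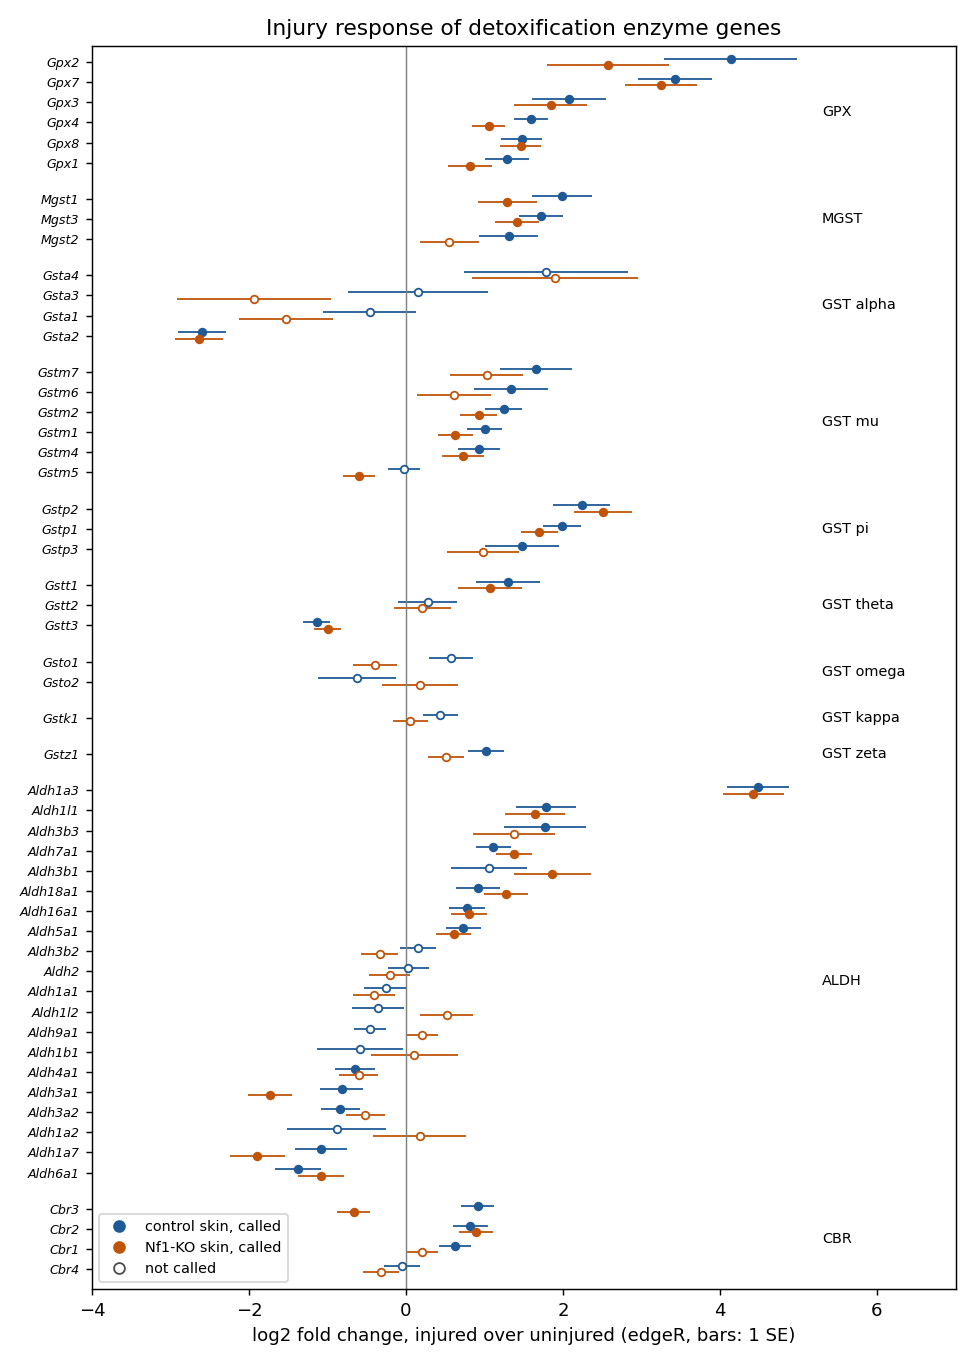
Points show the edgeR log2 fold change between injured and uninjured skin in control and Nf1-KO mice for 53 members grouped by family (Aldh8a1, Gpx5 and Gstt4, with few counts, are not shown), with bars of 1 SE and open points where adjusted p was 0.05 or more. Most GPX, MGST, GST mu and GST pi points lie to the right of 0, while the ALDH members shown run from 4.49 for Aldh1a3 to -1.38 for Aldh6a1 in control skin.

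Among the retinal dehydrogenases, which make retinoic acid from vitamin A aldehyde, Aldh1a3 had the largest rise of all members. Aldh1a3 (ENSMUSG00000015134, chromosome 7, 66390890 to 66427517) had 3.29, 1.92 and 0.82 CPM in control uninjured, 2.87, 2.15 and 2.53 in Nf1-KO uninjured, 48.2, 32.7 and 50.4 in control injured and 49.8, 73.9 and 38.1 in Nf1-KO injured libraries. Every injured library was many times above every uninjured one. The rise was 22.4-fold in control (log2 4.49 ± 0.39, edgeR adjusted p = 1.71e-06) and 21.4-fold in Nf1-KO skin (log2 4.42 ± 0.39, adjusted p = 1.09e-06). Uninjured levels were low, at 0.435 TMM-normalised CPM per kb in control and 0.5445 in Nf1-KO skin. The olfactory and vomeronasal receptor genes stood there at 0.209 and 0.151 raw CPM per kb. The part of this background in the size of the rise was not tested. The related Aldh1a1 had means of 19.1 ± 3.36, 16.4 ± 3.55, 15.9 ± 5.09 and 12.4 ± 3.09 CPM, in uninjured control and Nf1-KO and then injured control and Nf1-KO skin, and Aldh1a2 means of 1.22 ± 0.605, 1.57 ± 0.644, 0.641 ± 0.29 and 1.78 ± 0.955 CPM, and neither was called.

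Aldh1a7 (chromosome 19, 20692953 to 20727562), a rodent relative and neighbour of Aldh1a1, fell in both genotypes. It had 7.71, 7.67 and 9.46 CPM in control uninjured, 6, 6.28 and 5.87 in Nf1-KO uninjured, 2.4, 5.64 and 3.61 in control injured and 1.86, 1.69 and 1.29 in Nf1-KO injured libraries. No injured library overlapped an uninjured one of either genotype, and the Nf1-KO injured libraries were the lowest. The log2 fold changes were -1.08 ± 0.33 (edgeR adjusted p = 0.0109) in control and -1.89 ± 0.35 (adjusted p = 0.000661) in Nf1-KO skin. The control call was lost without control uninjured 3 or control injured 1 or 3, with log2 values of -0.82 to -0.98 and adjusted p of 0.0523 to 0.0632. A covariate for the ribosomal RNA-like share ended it too (log2 -0.65, adjusted p = 0.199), as did no filter (-0.89, edgeR adjusted p = 0.0543).

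Of the Aldh3a genes, Aldh3a1 fell in both genotypes and Aldh3a2 in control skin. Aldh3a1 (chromosome 11, 61207537 to 61218421), known as a major protein of the cornea that protects against ultraviolet light, had 96.4, 102 and 119.8 CPM in control uninjured, 124, 138 and 154 in Nf1-KO uninjured, 35.8, 91.9 and 52.9 in control injured and 32.5, 52.3 and 40.2 in Nf1-KO injured libraries. All injured libraries were below all uninjured ones, by 1.76-fold in control (log2 -0.82 ± 0.27, edgeR adjusted p = 0.0185) and 3.32-fold in Nf1-KO skin (log2 -1.73 ± 0.28, adjusted p = 0.000207). The control call was lost without control uninjured 3 or control injured 1 or 3 (log2 -0.53 to -0.68, adjusted p 0.0931 to 0.0989), and with the ribosomal RNA-like covariate (log2 -0.37, adjusted p = 0.326). Its neighbour Aldh3a2 (chromosome 11, 61223417 to 61267464), the fatty aldehyde dehydrogenase whose loss causes the scaly skin disease Sjögren-Larsson syndrome, had 40.9, 46.1 and 58.1 CPM in control uninjured, 44.98, 42.4 and 26.8 in Nf1-KO uninjured, 24.2, 31.9 and 25.1 in control injured and 22.7, 36.5 and 20.6 in Nf1-KO injured libraries. Control groups were apart and Nf1-KO groups overlapped. The log2 values were -0.84 ± 0.25 (edgeR adjusted p = 0.00946) and -0.52 ± 0.25 (adjusted p = 0.109). The control call was lost without control uninjured 3 (log2 -0.57, adjusted p = 0.0864) or control injured 3 (-0.74, adjusted p = 0.0522) and with the ribosomal RNA-like covariate (-0.34, adjusted p = 0.311), and the Nf1-KO value passed without Nf1-KO uninjured 3 (-0.69, adjusted p = 0.0457) or Nf1-KO injured 2 (-0.82, adjusted p = 0.0191).

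The Aldh3b genes, whose enzymes act on lipid aldehydes at membranes, lie together on chromosome 19. Aldh3b2 (chromosome 19, 3972328 to 3981646), the highest dehydrogenase per kb, had 109.7, 107 and 145 CPM in control uninjured, 146, 119 and 169.6 in Nf1-KO uninjured, 122, 137 and 143 in control injured and 98.6, 159 and 85.8 in Nf1-KO injured libraries. Both genotypes overlapped and neither value was called (log2 0.15 and -0.34, edgeR adjusted p = 0.598 and 0.258), apart from the Nf1-KO value without Nf1-KO injured 2 (log2 -0.65, adjusted p = 0.0266). Aldh3b1 (chromosome 19, 3913491 to 3929808) had 4.14, 0.691 and 2.08 CPM in control uninjured, 2.6, 1.15 and 1.99 in Nf1-KO uninjured, 4.62, 4.56 and 5.01 in control injured and 6.6, 5.08 and 9.21 in Nf1-KO injured libraries. Injured libraries were all higher, with a call in Nf1-KO skin (log2 1.86 ± 0.49, edgeR adjusted p = 0.00845) and none in control skin (log2 1.05 ± 0.49, adjusted p = 0.0754). Without control uninjured 1 the control value passed (log2 1.85, adjusted p = 0.00794), and without Nf1-KO uninjured 2 the Nf1-KO call was lost (log2 1.57, adjusted p = 0.0513). The ribosomal RNA-like covariate ended the Nf1-KO call too (log2 1.55, edgeR adjusted p = 0.0511). With no filter (log2 1.24, edgeR adjusted p = 0.0138) or the replicate block (1.25, adjusted p = 0.0288) the control value passed. Aldh3b3 had means of 3.47 ± 2.07 and 3.46 ± 2.67 CPM uninjured and 11.9 ± 3.35 and 8.89 ± 2.75 injured (log2 1.77 and 1.37, edgeR adjusted p = 0.0102 and 0.0511), with 24.2% of the 50-base stretches of Aldh3b2 shared, nearly all with Aldh3b3. Its Nf1-KO value passed without control uninjured 2 or 3, control injured 2, Nf1-KO uninjured 3 or Nf1-KO injured 3 (log2 1.38 to 2.23, adjusted p 0.00496 to 0.0467). It also passed in DESeq2 (log2 1.30, adjusted p = 0.0389) and, in edgeR, with no filter (1.44, adjusted p = 0.000655) or the replicate block (1.64, adjusted p = 0.0201). The Aldh3b3 call in control skin was lost with the ribosomal RNA-like covariate (log2 1.70, edgeR adjusted p = 0.0766).

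Dehydrogenases of amino acid and folate metabolism also went both ways. Aldh6a1 (chromosome 12, 84430717 to 84451004), a mitochondrial enzyme of valine breakdown, had 61.5, 63.9 and 76.2 CPM in control uninjured, 57.1, 51.7 and 29.6 in Nf1-KO uninjured, 15.3, 35.9 and 26.3 in control injured and 16.7, 27.3 and 21.3 in Nf1-KO injured libraries. It was lower in every injured library of its genotype, by 2.6-fold in control (log2 -1.38 ± 0.29, edgeR adjusted p = 0.00134) and 2.12-fold in Nf1-KO skin (log2 -1.08 ± 0.29, adjusted p = 0.00997). The Nf1-KO call was lost without Nf1-KO injured 1 (log2 -0.88, adjusted p = 0.0628) and with the ribosomal RNA-like covariate (-0.58, adjusted p = 0.121). As 18.6% of its exonic bases overlap Bbof1 on the opposite strand and the library kit does not mark strand, some reads may belong to either gene. Aldh4a1 (chromosome 4, 139622866 to 139649690), of proline breakdown, had 53.5, 44.5 and 51.7 CPM in control uninjured, 53.0, 48.0 and 58.6 in Nf1-KO uninjured, 33.1, 30.5 and 31.8 in control injured and 37.6, 48.7 and 18.6 in Nf1-KO injured libraries. Control groups were apart (log2 -0.65 ± 0.25, edgeR adjusted p = 0.0374) and Nf1-KO groups overlapped (log2 -0.60 ± 0.25, adjusted p = 0.0686). That control call was lost without any 1 of the 6 control libraries, and without Nf1-KO uninjured 1 or 2 or Nf1-KO injured 1 (log2 -0.50 to -0.72, adjusted p 0.0515 to 0.174), while the Nf1-KO value passed without Nf1-KO injured 2 (-0.90, adjusted p = 0.0126). The ribosomal RNA-like covariate (log2 -0.32, edgeR adjusted p = 0.427) and no filter (-0.46, adjusted p = 0.0943) also ended the control call. The Nf1-KO value passed under median-of-ratios scaling (log2 -0.69, edgeR adjusted p = 0.0445) and the stricter filter (-0.68, adjusted p = 0.0454). Gm21969 shares 30% of its 50-base stretches.

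Aldh1l1 (chromosome 6, 90486427 to 90600203), the cytosolic dehydrogenase of formyltetrahydrofolate, rose in both genotypes. It had 4.89, 3.68 and 5.8 CPM in control uninjured, 2.96, 2.53 and 7.59 in Nf1-KO uninjured, 13.7, 21.7 and 14.4 in control injured and 10.9, 11.5 and 18.4 in Nf1-KO injured libraries. The groups were apart, with log2 fold changes of 1.79 ± 0.38 (edgeR adjusted p = 0.0012) and 1.64 ± 0.38 (adjusted p = 0.0037). Its mitochondrial relative Aldh1l2 was not called (log2 -0.35 and 0.52, adjusted p = 0.386 and 0.226).

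A further 4 dehydrogenases rose in both genotypes by smaller steps. Aldh7a1, of lysine breakdown, went from 14.4 ± 1.32 to 31.0 ± 9.23 CPM in control and from 15.5 ± 0.534 to 40.2 ± 6.89 CPM in Nf1-KO skin (SD, n = 3, log2 1.11 and 1.38). Aldh18a1, which makes the precursor of proline, went from 19.1 ± 9.78 to 36.1 ± 4.76 and from 16.2 ± 3.49 to 39.2 ± 5.52 CPM (log2 0.91 and 1.27). Aldh5a1, which oxidises succinic semialdehyde from GABA, had log2 fold changes of 0.73 and 0.61, and Aldh16a1 of 0.77 and 0.81. The edgeR adjusted p-values of these 4 genes ran from 0.000246 to 0.0383. In Nf1-KO skin the Aldh5a1 call was lost without control uninjured 2, Nf1-KO uninjured 1 or 2 or Nf1-KO injured 1 or 2 (log2 0.42 to 0.67, adjusted p 0.0523 to 0.205). Median-of-ratios scaling, no filter, the compared groups alone, DESeq2 and the ribosomal RNA-like covariate ended it as well (adjusted p 0.0615 to 0.0909), and in control skin the covariate ended the Aldh5a1 call (0.67, adjusted p = 0.0594). In Nf1-KO skin the Aldh16a1 call was lost without Nf1-KO uninjured 2 (0.69, adjusted p = 0.0617). The Aldh18a1 call in control skin was lost without control uninjured 2 (0.69, adjusted p = 0.0676). Aldh2, the mitochondrial enzyme that clears acetaldehyde, had means of 131 ± 10.4, 143 ± 11.5, 134 ± 52.3 and 124 ± 33.0 CPM in uninjured control and Nf1-KO and then injured control and Nf1-KO skin, and was not called, except in control skin with the ribosomal RNA-like covariate (log2 0.63, edgeR adjusted p = 0.0281). Aldh1b1 (log2 -0.59 and 0.11) was not called. Aldh9a1, of carnitine synthesis, was lower in all injured than in all uninjured control libraries but was not called (log2 -0.46 in control, edgeR adjusted p = 0.0662, and 0.21 in Nf1-KO skin, adjusted p = 0.427). Its control value passed under median-of-ratios scaling, the stricter filter, the compared groups alone and without control uninjured 1 and 2 (log2 -0.49 to -0.79, adjusted p 0.0262 to 0.0497).

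Carbonyl reductases differed among themselves, and Cbr3 was the one member called in opposite directions. Cbr3 (ENSMUSG00000022947, chromosome 16, 93683215 to 93690990), which reduces quinones and other carbonyls, had 22.9, 35.9 and 33.6 CPM in control uninjured, 48.1, 50.3 and 69.4 in Nf1-KO uninjured, 51.6, 59.2 and 63.1 in control injured and 31.9, 32.5 and 41.4 in Nf1-KO injured libraries. Control injured libraries were all above control uninjured ones, whereas Nf1-KO injured libraries were all below Nf1-KO uninjured ones. The log2 fold change with injury was 0.91 ± 0.21 (edgeR adjusted p = 0.00203) in control and -0.67 ± 0.21 (adjusted p = 0.0209) in Nf1-KO skin. The Nf1-KO call was lost without Nf1-KO uninjured 3 (log2 -0.45, adjusted p = 0.117) or Nf1-KO injured 1 (-0.55, adjusted p = 0.116).

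Cbr2 (chromosome 11, 120729489 to 120732114), a mouse reductase best known from lung, had 66.9, 51.4 and 39.6 CPM in control uninjured, 73.0, 58.6 and 66.5 in Nf1-KO uninjured, 97.0, 83.3 and 97.9 in control injured and 157, 93.5 and 117 in Nf1-KO injured libraries. Its groups were apart and it rose in both genotypes (log2 0.82 ± 0.22, edgeR adjusted p = 0.00561, and 0.89 ± 0.22, adjusted p = 0.00564), although the ribosomal RNA-like covariate ended the control call (log2 0.59, adjusted p = 0.0811). Cbr1, a reductase of quinones and prostaglandins, rose in control skin, from 24.6 ± 3.22 to 37.8 ± 9.87 CPM (log2 0.62, edgeR adjusted p = 0.0169), with 32.8 ± 1.9 and 37.8 ± 3.51 CPM in Nf1-KO skin (log2 0.21, adjusted p = 0.435). Without control injured 2 or 3 the Cbr1 call was lost (log2 0.56 and 0.56, adjusted p = 0.0579 and 0.0672). Cbr4, of mitochondrial fatty acid synthesis, had log2 values of -0.05 and -0.32 and was not called.

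Between genotypes, no member passed the test. In uninjured skin 0 of 56 members were called between Nf1-KO and control in edgeR, where 0.0296% of all tested genes were. An unadjusted edgeR p under 0.05 was found for 2 of the 56 members and for 1971 of all 23635 tested genes. The 2 members were Cbr3 (log2 0.86 ± 0.21, adjusted p = 0.401) and Gpx4 (log2 0.61 ± 0.21, adjusted p = 0.537), both higher in all 3 Nf1-KO libraries than in all 3 control libraries. In injured skin 0 members and 0% of tested genes were called in edgeR. Unadjusted p was under 0.05 for 2532 of all 23635 tested genes and for 4 of the 56 members. Of these 4, Cbr3 (log2 -0.72 ± 0.21, adjusted p = 0.355) and Aldh1a7 (log2 -1.26 ± 0.35, adjusted p = 0.355) were lower in every Nf1-KO library, and the groups overlapped for Aldh1a2 and Aldh8a1. DESeq2 called 0 members in uninjured and 2 in injured skin, Cbr3 (log2 -0.82, adjusted p = 0.0374) and Aldh1a7 (log2 -1.36, adjusted p = 0.0477). With no expression filter, edgeR called Cbr3 in uninjured (log2 0.90, adjusted p = 0.025) and injured skin (log2 -0.81, adjusted p = 0.0446).

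The injury responses of the genotypes were also compared directly. Again 0 members and 0% of tested genes were called. Unadjusted p was under 0.05 for 2541 of all 23635 tested genes and for 5 of the 56 members. The smallest among the members was that of Cbr3, whose response in Nf1-KO skin was lower by a log2 difference of -1.58 ± 0.30 (SE, edgeR adjusted p = 0.181). This difference was called in DESeq2 (log2 -1.63, adjusted p = 0.000342) and in edgeR with no expression filter (log2 -1.72, adjusted p = 0.000219), and in the other settings adjusted p was 0.0663 to 0.892. The remaining 4 were Aldh3a1 (log2 -0.92), Gsto1 (-0.97), Aldh9a1 (0.67) and Aldh8a1, with edgeR adjusted p of 0.442 to 0.452. The comparisons of genotype and of injury share libraries, so they are not independent of each other. Nf1 itself, detected in every library at 8.14 to 17.2 raw CPM, does not check the genotype labels in a mixed tissue.

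Several members sit next to each other in the genome, and neighbours did not always move alike. On chromosome 3, Gstm5, Gstm7, Gstm6, Gstm3, Gstm2, Gstm1 and Gstm4 follow one another from 107895821 to 108044894, with gaps of 7029 to 27647 bases. The first of them, Gstm5, was the one tested gene of the cluster with negative log2 values in both genotypes. On chromosome 19, Aldh3b1, Aldh3b3 and Aldh3b2 are followed after 53760 bases by Gstp1, Gstp2 and Gstp3. All 6 had positive log2 values in control skin, and Aldh3b2, 224 bases from Aldh3b3, was the least changed. On chromosome 1, Aldh9a1 lies 3433 bases from Mgst3, and their log2 values in control skin were -0.46 and 1.72. Gsto1 and Gsto2 are 743 bases apart and Aldh3a1 and Aldh3a2 4995 bases.

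**Figure D4:**
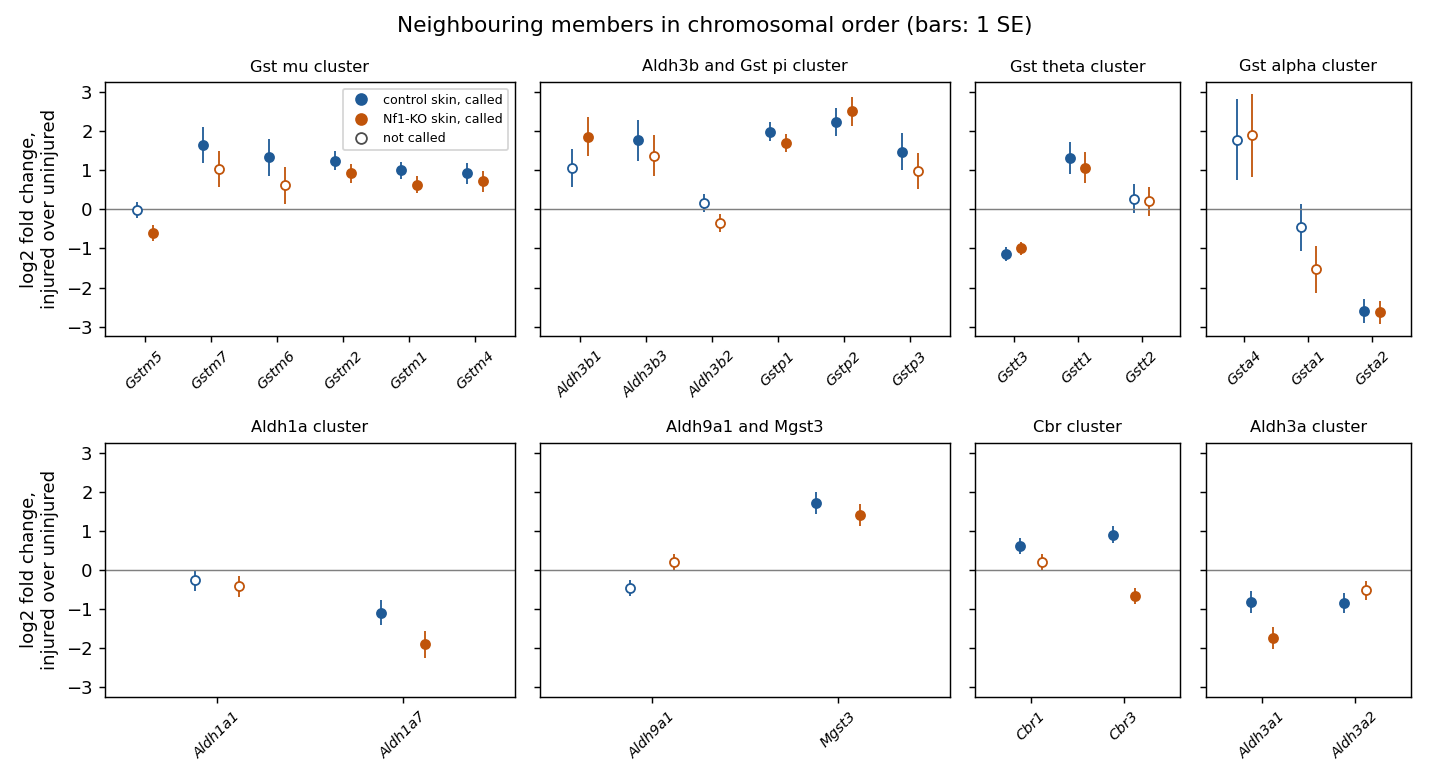
Each panel shows members that are genomic neighbours, in chromosomal order, with the edgeR log2 fold change between injured and uninjured skin in control and Nf1-KO mice and bars of 1 SE. Gstt3 lies below 0 beside Gstt1 above it, Gstm5 lies apart from the other mu class genes, and Cbr3 is above 0 in control and below 0 in Nf1-KO skin.

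A group of 4 members had few counts, mostly in uninjured libraries. Aldh8a1, of tryptophan breakdown, had 34 counts in control uninjured and 0 in control injured libraries, and was at least 14.7-fold lower, against a floor of 3 counts over the group. In Nf1-KO skin Aldh8a1 had 16 and 7 counts and was not called (log2 -1.29, edgeR adjusted p = 0.342). Gpx5, a secreted peroxidase of the epididymis, had 80 and 2 counts in control skin, a ratio of 51.9 (95% exact counting interval 13.9 to 436). In Nf1-KO skin it had 61 and 6 counts and was called lower (log2 -3.44, edgeR adjusted p = 0.0063). Gstt4 had 21 and 2 counts in control (ratio 13.6, 3.33 to 120) and 28 and 1 in Nf1-KO skin (ratio 37.3, 6.17 to 1525). Gpx6, an olfactory peroxidase, had 12 and 1 counts in control (ratio 15.6, 2.31 to 666) and 9 and 1 in Nf1-KO skin (ratio 12, 1.66 to 525). In uninjured control skin their raw levels per kb were 0.218 CPM for Aldh8a1, 0.247 for Gpx6, 0.597 for Gstt4 and 1.34 for Gpx5, beside 0.209 CPM per kb for the olfactory and vomeronasal receptor genes. In injured control skin the receptor genes were at 0.00414 CPM per kb. The background and these 4 genes were thus all lower in injured control skin, and its part in the difference was not tested. Intervals and floors cover counting error only. The Gstt4 call in control skin was lost without control uninjured 1 or 2 or control injured 2 or 3 (edgeR adjusted p 0.0533 to 0.158).

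Genes around the members' pathways gave a mixed picture. Of 23 genes of glutathione synthesis, recycling and breakdown, 13 rose and 2 fell in control skin and 12 rose and 2 fell in Nf1-KO skin (median log2 0.65 and 0.82). Ggt1, the membrane enzyme that starts the breakdown of glutathione outside cells, had 1.13, 0.998 and 0.505 CPM in control uninjured, 0.358, 0.843 and 0.813 in Nf1-KO uninjured, 16.2, 10.6 and 19.3 in control injured and 19.4, 26.2 and 16.4 in Nf1-KO injured libraries, far apart in both genotypes (log2 4.15 and 4.91, edgeR adjusted p = 1.84e-06 and 4.39e-07). Dpep1, the dipeptidase of the next step, rose by 3.41 and 3.31 (adjusted p = 2.51e-06 and 2.17e-06), and Chac1, which breaks down glutathione within cells, by 3.11 and 3.16 (adjusted p = 9.52e-06 and 6.5e-06) on the log2 scale.

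The NRF2 list outside the members was divided, with 8 of 21 genes higher and 5 lower in control and 7 higher and 4 lower in Nf1-KO skin. Txn1, thioredoxin, rose by 2.45 and 1.70 and Ftl1, the ferritin light chain, by 1.80 and 1.73 on the log2 scale. Me1, malic enzyme, had log2 fold changes of -1.13 and -1.12 and the exporter gene Abcc4 of -1.04 and -1.42, and edgeR adjusted p for these 4 genes was 1.86e-05 to 0.000846. Nqo1, a standard NRF2 target named here after its values were seen, was not called (log2 0.05 and 0.19, adjusted p = 0.914 and 0.72). Among 16 other peroxide and superoxide enzymes, 11 rose and 2 fell in control and 8 rose and 3 fell in Nf1-KO skin, and the smallest p in control skin was that of Prdx3 of mitochondria (log2 1.39 and 1.39, edgeR adjusted p = 9.21e-05 and 9.4e-05). Sod1 of the cytosol had log2 fold changes of 1.87 and 1.45 and Prdx4 of the endoplasmic reticulum of 1.72 and 1.68, and Selenop, a secreted selenium carrier, of 0.68 and 1.35, all called.

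In the retinoid list around the 1A dehydrogenases, 9 of 21 genes rose and 3 fell in control skin and 7 rose and 3 fell in Nf1-KO skin. Stra6, the cell surface receptor for retinol and its binding protein, rose beside Aldh1a3 by 3.34 and 3.74 on the log2 scale (edgeR adjusted p = 4.05e-06 and 1.09e-06), and Crabp2, which carries retinoic acid within cells, by 1.75 and 1.09. Adh7, an alcohol dehydrogenase that oxidises retinol, fell by 4.82-fold and 5.47-fold (edgeR adjusted p = 2.65e-05 and 1.2e-05), and Rxra, a partner of the retinoic acid receptors, had log2 fold changes of -0.99 and -1.19, both called. Of 15 tested genes of the aryl hydrocarbon receptor and phase I enzymes, 5 rose and 3 fell in control and 4 rose and 2 fell in Nf1-KO skin. Ahr, the receptor, fell 3.73-fold and 3.35-fold (edgeR adjusted p = 1.24e-05 and 2.26e-05), while Cyp1b1, one of its target genes and an oxidase of retinoids and steroids, rose 6.81-fold and 6.83-fold (adjusted p = 0.000133 and 0.000135). Ahrr, the repressor of the receptor, fell 4.63-fold and 3.8-fold (edgeR adjusted p = 0.000892 and 0.00397), and Tiparp, another target, had log2 values of -1.27 (adjusted p = 0.00065) and -0.62 (adjusted p = 0.0559). Between genotypes, 0 genes of these 5 lists were called in edgeR in uninjured or injured skin.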

How the data were processed

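RNA of whole skin was prepared with a fibrous tissue kit, amplified from 10 ng with Smart-Seq v4 and made into Nextera XT libraries, per the labels' protocols, a kit that does not mark strand. The deposited tables hold raw read counts per Ensembl gene ID, and the submitters' processing notes name STAR 2.5.2b, SAMtools, HTSeq 0.5.3, DESeq2, HOMER and the mm10 build. Annotation and strand setting: not given in the sources used here. In the tables, 1 column of no listed sample was not used. Of 53379 IDs, 53274 matched GENCODE M21, and the 105 others held at most 0.0454% of the counts of a library. The 3 non-coding genes with a matching symbol, such as Gpx4-ps2, were left out.

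Genes passing edgeR's expression filter with a count minimum of 10 were tested with edgeR 4.0.16 (R 4.3.3), with TMM scaling and 1 fit over all 4 groups, by the quasi-likelihood test with Benjamini-Hochberg adjustment at 0.05 over 23635 genes. Members given in every sample were, per comparison, up to 8 called with the largest rise and 8 with the largest fall among those averaging at least 2 CPM, the 2 highest per kb in each family, and any called between genotypes. In each pathway list, up to 3 called genes of smallest p per injury comparison were named. The members and lists were chosen with earlier results of these data known. Alternatives were median-of-ratios scaling, no filter, 2 CPM in 3 libraries, the replicate number as a block, the compared groups alone, DESeq2 1.42.0, a covariate for the share of ribosomal RNA-like counts, and libraries left out. The test was checked on simulated counts with the same spread for all genes and few changed genes. These data differ from that in both respects, so the check says little about the calls here. Library totals of 8817013 to 16809687 counts limit the precision of genes with few counts. Replicate libraries differed beyond sampling noise, with chi-square per degree of freedom of 9.55 to 87.8.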

Additional observations from a re-analysis of the deposited data

Results flagged for a closer look

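Cbr3 was the one member whose injury response was called in opposite directions in the genotypes. It had 22.9, 35.9 and 33.6 CPM in uninjured and 51.6, 59.2 and 63.1 CPM in injured control skin, and 48.1, 50.3 and 69.4 CPM in uninjured and 31.9, 32.5 and 41.4 CPM in injured Nf1-KO skin (libraries 1 to 3 of each group). The test of the difference itself gave a log2 value of -1.577 ± 0.30 (SE) for Nf1-KO relative to control, with an edgeR adjusted p of 0.181 over all genes, so the difference did not pass. It was negative in all 19 alternative settings run. Those settings reuse the same libraries, and Cbr3 was flagged for its opposite calls in them, so the shared sign is no independent support.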

How the results depend on the processing

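No called member changed sign in the injury comparisons under any setting. Over the named members' values in all 5 comparisons, 2762 stayed on their side of the threshold, 82 lost the call and 27 gained one. Between genotypes and in the difference between responses no member was called in the main fit, so no call could be lost there. All 82 losses thus fell among the calls of the 2 injury comparisons, and the 2762 are no measure of how stable those calls were. Without control uninjured 1 and 2, which leaves 1 library in that group, assumed to vary like the others, 19 members were called in control skin, 12 of them higher. Leaving out 1 library at a time gave 32 to 40 members called in control skin (26 to 31 higher, 5 to 10 lower) and 20 to 34 in Nf1-KO skin (12 to 26 higher, 6 to 12 lower). With no filter, 1 member was called between genotypes in uninjured skin, 1 in injured skin and 1 in the difference between responses. DESeq2 called 2 in injured skin and 1 in the difference. With the replicate block, 41 members were called in control and 31 in Nf1-KO skin, and Gsta4 passed in both (log2 2.61, edgeR adjusted p = 0.00908, and 2.34, adjusted p = 0.0208). Deviations of same-numbered libraries correlated at -0.103 to 0.38 and those of different-numbered ones at -0.378 to 0.208. Between the uninjured groups, same-numbered pairs 1 to 3 gave -0.103, 0.38 and 0.217, and different-numbered pairs -0.378 to 0.184. Whether the numbers pair the samples cannot be told from these values. Median-of-ratios scaling moved the median of all genes by -0.064 in control and -0.107 in Nf1-KO skin. With the ribosomal RNA-like covariate 31 and 23 members were called. The difference between responses uses all 4 groups, so no fit of compared groups alone applies to it. Genes with few counts, such as Aldh8a1, Gpx6, Gstm3 and Gstt4, are limited by depth.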
